A study of Homo sapiens with 2 samples.

Results

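The NF-κB subunits and inhibitors described here are 10 of the 19775 genes that the platform's annotation names singly, and they are read by 22 of the 54675 probe sets of an Affymetrix expression array. The members were chosen by name: every probe set that the annotation assigns to 1 of these genes and to no other gene. The 5 subunit genes REL, RELA, RELB, NFKB1 and NFKB2 have 12 probe sets, and the 5 inhibitor genes NFKBIA, NFKBIB, NFKBIE, NFKBIZ and TNFAIP3 have 10.

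RNA came from CL1-0, an established human lung adenocarcinoma cell line whose labels give the cell type as type II alveolar cell. There were 2 arrays, 1 labelled FSTL1 antibody at 0 h and 1 labelled FSTL1 antibody at 6 h, FSTL1 being a follistatin-like glycoprotein that cells secrete. Both arrays carry the same antibody label, and the labels' treatment protocol for both mentions puromycin selection and stable transduction without naming what was introduced. No array of cells cultured 6 h untreated or with an irrelevant antibody was analysed here, so the antibody and time in culture cannot be told apart. With 1 array per time there is no spread between replicates, no test and no replicate check of any value below.

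NF-κB is a family of dimeric transcription factors that wait in the cytoplasm in complex with inhibitors of the IκB class. When a receptor for a cytokine, a microbial product or a growth signal is engaged, IκB kinase marks the IκB protein for destruction and the dimer enters the nucleus. Some of the genes it switches on encode its own inhibitors and subunits, so that messenger RNA of NFKBIA is widely used as a sign of recent NF-κB activity, and lung epithelial cells use the pathway in inflammatory and survival responses.

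The DNA that these dimers bind is a short, nearly symmetrical element, and the stretches below show where its letters lie ahead of the member genes. The 250 bases before each transcription start listed by RefSeq (GRCh38.p14) were searched on both strands for the NF-κB consensus sequence. Of 8 member genes with a listed promoter 7 held a match, where 6.28% of 27305 genes did, and 9 of the 14 member starts had one, against 5.21% of all 35116 starts. Capitals mark matches, lines read 5′ to 3′ along the gene's strand, and matches on both strands overlap in REL and NFKBIB. For each gene the match nearest to a start is shown.

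REL: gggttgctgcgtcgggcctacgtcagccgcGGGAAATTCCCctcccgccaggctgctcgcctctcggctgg
NFKBIA: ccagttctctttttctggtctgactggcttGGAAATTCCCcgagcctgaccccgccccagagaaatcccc
TNFAIP3: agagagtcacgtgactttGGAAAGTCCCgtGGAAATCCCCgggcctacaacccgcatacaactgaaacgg
NFKB1: gacgtcagtGGGAATTTCCagccaggaa
NFKB2: ggtattttcGGGACTTTCCtaagctgct
NFKBIB: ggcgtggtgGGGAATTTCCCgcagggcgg
NFKBIZ: ttttggtctGGGAATTTCCagtgtgcag

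These stretches lie at chr2:60881497-60881567 on the + strand for REL, chr14:35404791-35404860 on the - strand for NFKBIA and chr6:137867174-137867243 on the + strand for TNFAIP3. Those of NFKB1 (chr4:102501301-102501328), NFKB2 (chr10:102395675-102395702), NFKBIB (chr19:38899932-38899960) and NFKBIZ (chr3:101827758-101827785) are all on the + strand. The first capital of the nearest match lies 47 bases before the start in REL, 81 in NFKBIA, 55 in TNFAIP3, 49 in NFKB1, 21 in NFKB2, 28 in NFKBIB and 223 in NFKBIZ. The exact letters GGGAATTTCC were taken from the NFKBIA match, so that NFKBIA holds them by choice. On one strand or the other they were shared by NFKBIA, REL, NFKB1, NFKBIB and NFKBIZ, 5 member genes. They were found in 0.176% of all genes with a listed promoter. No match was found before the 2 listed starts of RELA, which says only that these letters are not in those windows. RELB and NFKBIE were not searched.

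The question of the comparison is which of these transcripts differed between the 0 h and the 6 h array, and whether the subunits and their inhibitors did so alike. REL and NFKBIA were higher at 6 h, and the other members differed little. REL, a subunit with a transactivation domain best known from lymphocytes, was 1.44-fold higher on its brightest probe set. NFKBIA, which encodes IκBα, was 1.61-fold higher. Of the other inhibitors NFKBIB (on 2 of its 3 probe sets) and NFKBIZ were slightly lower and NFKBIE and TNFAIP3 were level, while RELB, NFKB1 and NFKB2 were slightly higher and the 2 probe sets of RELA went opposite ways.

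Values are intensity on a linear scale as deposited. Those under 45.4, the 50th percentile of both arrays pooled, were set to that floor, an assumed background, and a probe set counts as measured when it lay above the floor on at least 1 array. A difference is the log2 value at 6 h minus that at 0 h, and a call is a difference of at least 1.5-fold (0.585 on the log2 scale). Of the 22 member probe sets 18 were measured, 10 for subunits and 8 for inhibitors, and 4 lay under the floor on both arrays. Levels of different probe sets cannot be ranked against each other, so only differences within a probe set are compared.

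**Figure D1:**
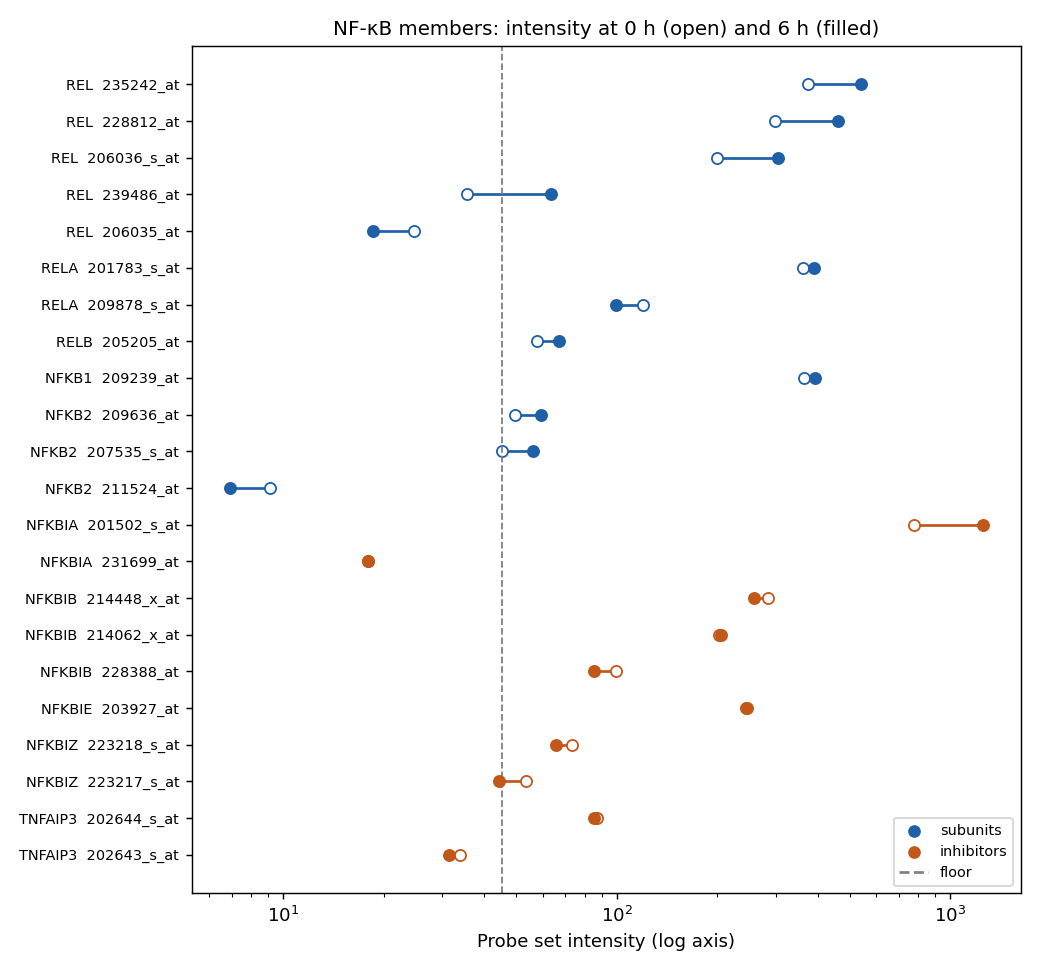
Intensity of all 22 member probe sets on a log axis, with the 0 h array as open and the 6 h array as filled circles, subunits in blue and inhibitors in orange, and the floor of 45.4 as a dashed line. The 4 brightest REL probe sets and the brighter NFKBIA set lie further right at 6 h, while most other pairs nearly touch; each circle is 1 array, with no error.

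Among the subunits, REL had 4 measured probe sets, and the 3 above the floor on both arrays were all higher at 6 h. Probe set 235242_at read 374.2 at 0 h and 537.9 at 6 h, a log2 difference of 0.52. Probe set 228812_at read 298.5 and 460.9 (0.63), and 206036_s_at read 199.0 and 303.2 (0.61). The 3 sets thus lay between 1.44-fold and 1.54-fold higher. A dimmer set, 239486_at, went from 35.6, under the floor, to 63.4 and was at least 1.40-fold higher. It counts as measured through its 6 h value alone, so it could only come out higher. The last, 206035_at, stayed under the floor at 24.6 and 18.6 and so gives no direction.

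Probe sets of one gene are no replicates, but their scatter can be seen here. They may read different parts or forms of its transcripts, which was not examined. That scatter holds no variation between cultures, RNA preparations or arrays, so it is no measure of error for the 6 h difference. Over 6122 genes with at least 2 measured sets that scatter had an SD of 0.16 on the log2 scale. The 3 REL sets above the floor on both arrays spanned 0.52 to 0.63. The set 239486_at stands at its bound of 0.48, and without the floor it was at 0.83. Of 1091 genes with at least 4 measured sets, only REL had all sets at 0.48 or above, the bound that is its lowest value. Both the number of sets and the cut were taken from REL after its values were seen, and 239486_at could only come out higher. Such a count describes REL and lends its difference no support. With the floor at the 60th percentile REL had 3 measured sets, and 2 of 2041 genes with as many, REL included, had all sets at least as high as its lowest. Without a floor its set 206035_at counts as well, at -0.23. Of 1335 genes with as many sets, 1024, REL included, then had all sets at least as high as that.

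RELA encodes the subunit with the main transactivation domain of the classical dimer. Its probe set 201783_s_at read 361.1 at 0 h and 388.7 at 6 h (log2 difference 0.11), and 209878_s_at read 119.8 and 99.2 (-0.27). The sets disagree in sign, so RELA has no settled direction. NFKB1, which encodes a precursor that is processed to the partner of RELA, read 363.0 and 393.7 on its only set (0.12). Of all measured probe sets 50.9% differed by at least as much, in either direction, as that of NFKB1.

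RELB and NFKB2 encode the dimer of the alternative NF-κB pathway, and the uncleaved NFKB2 product also acts as an inhibitor. RELB read 57.5 at 0 h and 67.1 at 6 h (log2 difference 0.22). The measured sets of NFKB2 read 49.4 and 59.3 on 209636_at (0.26) and 45.4 and 55.9 on 207535_s_at (0.30). All 3 sets were higher by a similar small amount, and all lay close to the floor. Another NFKB2 set, 211524_at, read 9.1 and 6.9 and was not measured. Differences of this size were common: 23.3% of all measured probe sets were as far from 0 as RELB, and 16.9% and 12.6% as far as the NFKB2 sets.

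Among the inhibitors, NFKBIA had the largest difference of all member probe sets. IκBα, its product, holds RELA-containing dimers in the cytoplasm and is remade after each round of activation. Probe set 201502_s_at went from 778.0 at 0 h to 1250.5 at 6 h, a log2 difference of 0.68. Of 28206 measured probe sets 118 were at least as high, or 0.418%. It lies among the brightest 7052 measured probe sets, where differences scattered least of 4 brightness classes (SD 0.15), and 0.113% of these were as far from 0 in either direction. Its other set, 231699_at, read 17.9 and 18.0, under the floor, so the NFKBIA difference rests on 1 probe set.

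The remaining IκB genes did not share that difference. NFKBIB, which encodes IκBβ, read 283.3 at 0 h and 257.8 at 6 h on 214448_x_at (log2 difference -0.14). Its set 214062_x_at read 203.0 and 205.7 (0.018), and 228388_at read 99.5 and 85.2 (-0.22). Identifiers ending in _x_at mark sets that may cross-hybridise, and the set without that ending was the lowest of the 3. NFKBIE, which encodes IκBε, was level at 244.0 and 246.1 (0.012), and 94.1% of measured probe sets differed by at least as much. NFKBIZ encodes a nuclear IκB protein that can also act as a coactivator. It read 73.3 and 65.9 on 223218_s_at (-0.16), and 223217_s_at went from 53.5 to 44.2, under the floor, at least 1.18-fold lower.

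TNFAIP3 encodes a ubiquitin-editing enzyme that shuts off signalling upstream of IκB kinase and is itself a well-known NF-κB target. Its measured set 202644_s_at read 87.3 at 0 h and 85.5 at 6 h, a log2 difference of -0.03, and 86.1% of measured probe sets differed by at least as much. Its other set, 202643_s_at, lay under the floor at 33.9 and 31.4. NFKBIA was higher and TNFAIP3 was level, and both have NF-κB letters before their start. Whether these letters bear on the differences was not tested. Of 834 measured genes with a consensus match 10 were at least 1.5-fold higher, or 1.2%, NFKBIA among them, and of 9390 with a listed promoter and no match 62 were, or 0.66%. At least 1.5-fold lower were 2 genes with a match and 12 without. By any amount 54.7% and 54.9% were higher. The median log2 differences of these groups were 0.022 and 0.019, and the groups were not tested against each other.

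**Figure D2:**
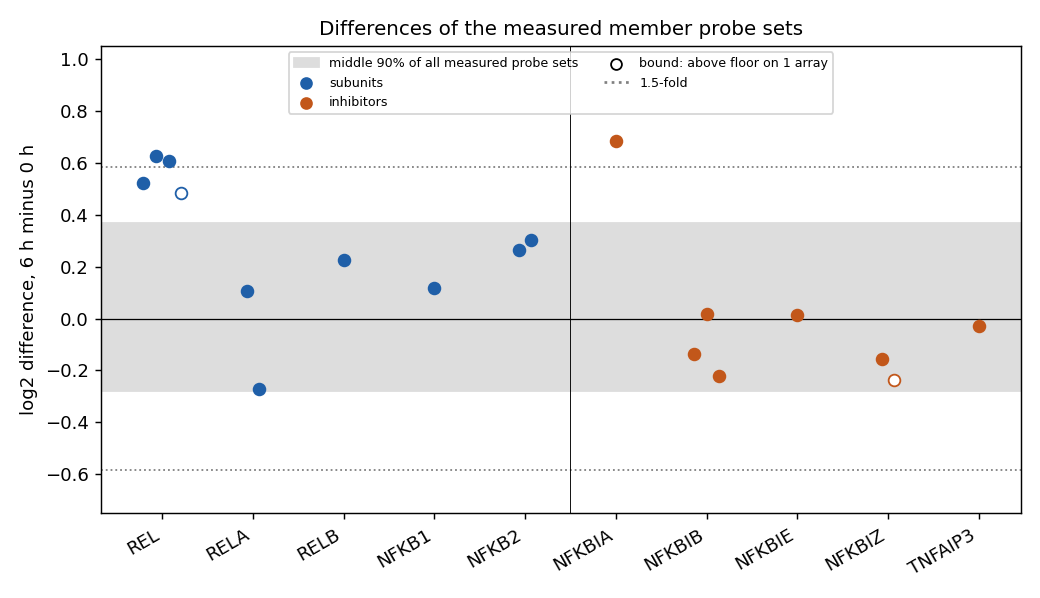
The log2 difference of each measured member probe set by gene, with subunits in blue, inhibitors in orange, open circles for the 2 sets with only a bound, dotted lines at 1.5-fold and a grey band over the middle 90% of all measured probe sets (-0.28 to 0.37). The REL sets and the NFKBIA set lie above the band, and all other members lie inside it.

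Set side by side, 9 of the 10 measured subunit probe sets were higher at 6 h and 1 was lower, and their median log2 difference was 0.28. Of the 8 measured inhibitor sets 3 had positive and 5 negative differences, and their median was -0.08. In each group 1 set was above the floor on 1 array only, which fixed its sign. These were REL 239486_at, counted as higher, and NFKBIZ 223217_s_at, counted as lower. NFKB2 207535_s_at read 45.4 at 0 h, the floor to the printed digit, so it had almost no room to come out lower. The inhibitor median minus the subunit median was -0.365, while over all 28206 measured sets the median was 0.021 and 54.9% were higher. REL supplies 4 of the 10 subunit sets. Without REL the other 6 had a median of 0.17 with 5 higher, and without NFKBIA the other 7 inhibitor sets had a median of -0.14 with 2 higher. Counted by gene on the brightest probe set, all 5 subunits were higher (median 0.22, range 0.11 to 0.52) and 2 of 5 inhibitors were (median -0.03, range -0.16 to 0.68). For RELA that count turns on the choice of probe set, since the median of its sets was -0.08.

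At least 1.5-fold higher were 2 of the 10 measured subunit sets, both of REL, and 1 of the 8 inhibitor sets, that of NFKBIA, against 0.805% of all measured probe sets (227 of 28206). At least 1.5-fold lower were 0 member sets, and 0.199% of all measured sets. By gene only NFKBIA of the 10 members passed, against 0.75% of 12669 genes. It ranked 53 from the highest, and REL, whose brightest set lay just short of a call, ranked 172. The 2 REL calls are close to the threshold: after quantile normalization the sets 228812_at and 206036_s_at stood at 0.57 and 0.55, and after a loess curve was taken off at 0.58 and 0.56, so that 0 subunit sets passed. NFKBIA stood at 0.63 to 0.68 in every setting that kept its set. No member set was 2-fold higher or lower, against 0.0319% and 0.00709% of all measured probe sets.

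**Figure D3:**
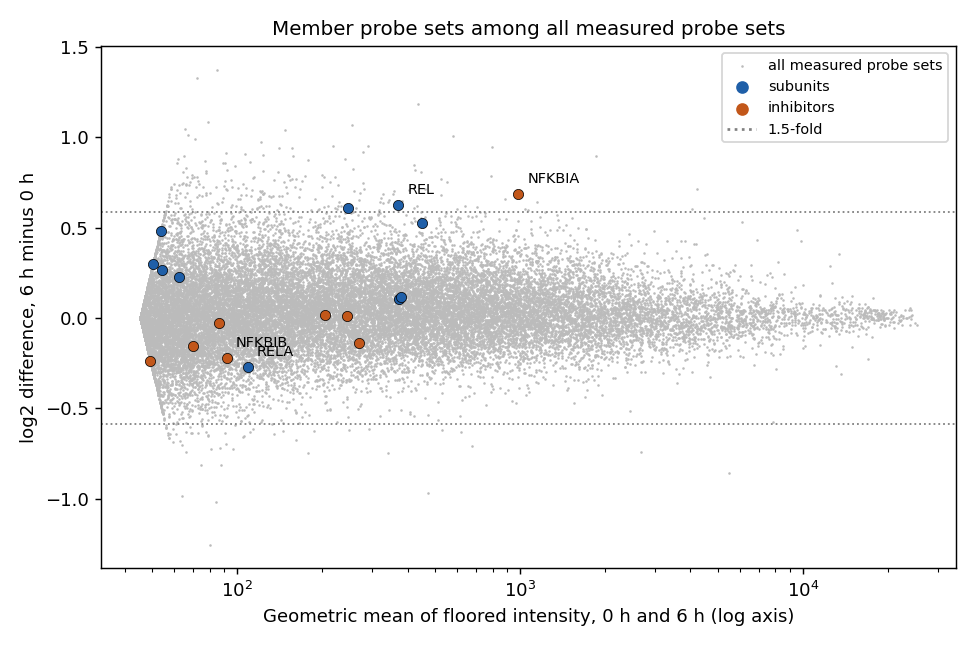
The log2 difference of every measured probe set against the geometric mean of its floored intensity on both arrays (log axis), all sets in grey, subunits in blue, inhibitors in orange, dotted lines at 1.5-fold. Few grey points of like brightness lie as far from 0 as NFKBIA at 0.68, and the scatter of all sets widens toward the floor, where RELB, NFKB2 and NFKBIZ lie.

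The other pathway genes were taken from lists of receptors, kinases and adaptors, regulators and targets. They showed 0 calls, where 0.75% of all genes were called higher and 0.182% lower, so a count of 0 is near the background. Of 11 receptor genes 6 were measured and all 6 were below 0, with a median of -0.11, where 5784 of all 12669 genes were lower. TLR2, at the floor, was at -0.016 and in effect level, and is named here after its value was seen. Like IL1R1, it was above the floor at 0 h only, so both could only come out lower. The TNF receptor TNFRSF1A went from 62.5 to 53.4 (log2 difference -0.23) and the TWEAK receptor TNFRSF12A from 914.2 to 821.7 (-0.15). IL1R1, the interleukin-1 receptor, went from 52.3 to under the floor (43.4), at least 1.15-fold lower, and CD40 was near level (-0.07, with 4 sets between -0.07 and 0.03). Among kinases and adaptors 19 of 24 were measured, with a median of 0.042, 12 above and 7 below 0. Their widest differences went opposite ways: MYD88, the adaptor of Toll-like and interleukin-1 receptors, went from 125.3 to 84.3 (-0.57, just short of a call), and TAB2, a partner of the kinase TAK1, from 995.3 to 1314.1 (0.40, its other measured set 0.20).

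Differences of the other adaptors were smaller. BCL10, of the antigen receptor branch, was at 0.27 with 3 sets between -0.03 and 0.27, and TAB1 went from 62.0 to 72.0 (0.22). Of the IκB kinase genes, named for their role, CHUK was slightly higher (0.15). IKBKB was at 0.03 with its other set at -0.13, and IKBKG at -0.04 with its other set at 0.01. Other inhibitors and regulators numbered 15 measured of 19, 9 higher and 6 lower, with a median of 0.017. On the brightest set of each gene the widest differences in this list were small, but some dimmer sets went further. These reached 0.46 for OTUD7B, 0.42 for PIAS1 and -0.42 for OTULIN, genes named after their values were seen. Their brightest sets were at 0.017, -0.045 and -0.108. TNIP1, which binds the TNFAIP3 enzyme, went from 610.5 to 725.4 (0.25, its other set 0.54), RNF11 from 1687.0 to 1972.7 (0.23) and TAX1BP1 from 2147.8 to 2396.8 (0.16, 3 sets between 0.13 and 0.50). COMMD1, which promotes turnover of RELA, was at -0.14. The ubiquitin ligase ITCH and the binding protein TNIP2 are also described as partners of the TNFAIP3 enzyme, and are named after their values were seen. ITCH was at -0.10 with 5 sets between -0.10 and 0.33, so its direction is not settled. TNIP2 was at 0.08 with 3 sets between 0.02 and 0.08.

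Known NF-κB target genes were mostly under the floor. Of 27 listed 10 were measured, 7 higher and 3 lower, with a median of 0.067 and no call. Of those higher, LIF, named for this reason, was above the floor at 6 h only and could only come out higher. The chemokines CXCL1, CXCL2, CXCL3, CXCL8, CCL2 and CCL20 and the cytokines IL6 and TNF were not measured. IER3, an early response and survival gene, went from 391.1 to 473.5 (log2 difference 0.28), and IL1B, near the floor, from 55.6 to 63.2 (0.18). BCL2L1, a survival gene, was at -0.15 with its other set at 0.009, and CFLAR, an inhibitor of caspase-8, at 0.12 with 12 sets between -0.18 and 0.36. The target genes that were measured thus showed smaller differences than NFKBIA, while 15 of the unmeasured ones lay under the floor and 2 have no probe set named for that gene alone, so nothing can be said of them here.

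**Figure D4:**
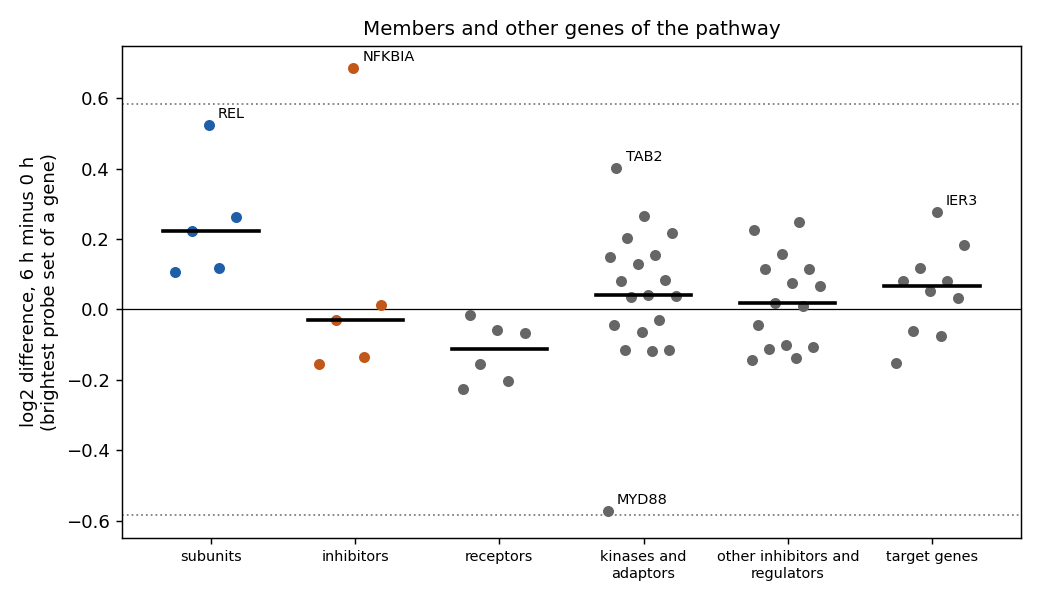
The log2 difference of each measured gene on its brightest probe set, for subunits (blue), inhibitors (orange) and 4 other lists of the pathway (grey), with black bars for medians and dotted lines at 1.5-fold. NFKBIA is the only gene past a dotted line, the 6 receptors lie below 0, TLR2 nearly at it, and MYD88 lies just inside the lower line.

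Facts of the arrays that bear on these values are few. The arrays had median intensities of 45.8 (0 h) and 44.9 (6 h), and the scaling between the arrays is not stated. Of 10 alveolar type II markers 5 were measured (SFTPC, SFTPB, ABCA3, NAPSA, NKX2-1), with a summed intensity of 498.3 and 562.5, and SFTPD, LAMP3 and SLC34A2 were not. On the brightest sets 4 of these were higher and SFTPC was lower (log2 difference -0.30). Sets of SFTPB ran from -0.39 to 0.35 and those of NKX2-1 from -0.18 to 0.275. Sums here and below add different probe sets, many near the floor, and give no direction for a cell type. Of 5 epithelial markers KRT8 (log2 difference 0.12) and KRT18 (-0.29) were measured, with a summed intensity of 196.3 and 173.3. EPCAM, CDH1 and KRT19 were not. Of 5 leukocyte markers, PTPRC and CD14 included, none was measured. Fibroblast markers were measured for 2 of 5 (summed intensity 114.7 and 95.7) and endothelial markers for 1 of 5 (73.5 and 54.5). In bulk RNA fewer cells with a transcript and less of it per cell cannot be told apart.

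**Figure D5:**
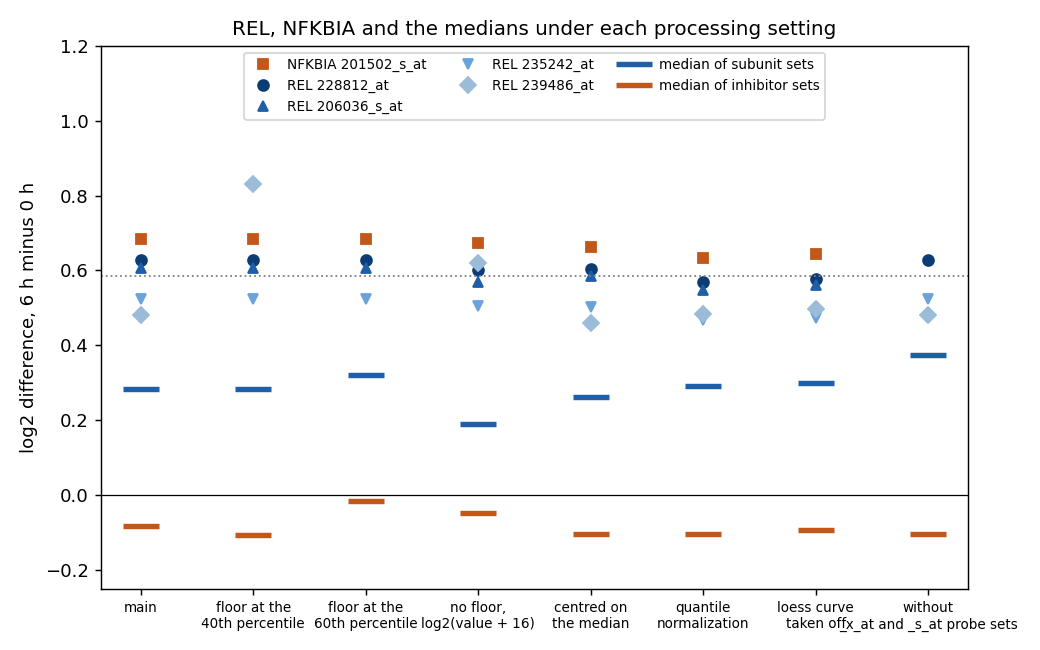
The log2 difference of the REL and NFKBIA probe sets, and the medians of subunit and inhibitor sets (bars), under 8 processing settings, with a dotted line at 1.5-fold. NFKBIA stays above the line wherever its set is kept, the REL sets straddle it, and the subunit median stays above the inhibitor median in all 8.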

How the data were processed

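The deposited file holds probe set intensity, which the authors summarised with MAS5 per the submitters' processing notes. Its version, parameters and scaling are not stated there. The method subtracts local background and mismatch signal, which makes dim values noisy. Probe sets were named through the platform annotation, with symbols updated by Entrez identifier through a RefSeq table (41043 of 41097 sets with 1 gene matched). The 62 control sets were left out. A gene is represented by its measured set with the highest mean log2.

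Members and lists were chosen with earlier results of these data known. All members are named, with up to 4 genes of each further list, those with the largest absolute difference; genes outside this rule are marked. Alternatives were floors at the 40th and 60th percentile, no floor with log2(value + 16), median centring, quantile normalization, a loess curve (span 0.3), sets without _x_at and _s_at endings, and the median of a gene's sets. The steps were tested on simulated data (Python 3.11.15, statsmodels 0.14.6). Changes were planted only in bright probe sets, so that test does not cover differences of sets near the floor. The number of arrays limits the precision.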

Additional observations from a re-analysis of the deposited data

How the results depend on the processing

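The median of subunit sets stayed above 0 and that of inhibitor sets below 0 in all 8 settings tried. The subunit median was 0.19 with no floor and 0.37 without _x_at and _s_at sets (0.28 as reported), the inhibitor median was -0.016 with the floor at the 60th percentile (-0.08 as reported), and the inhibitor median minus the subunit median was -0.24 with no floor and -0.48 without _x_at and _s_at sets (-0.365 as reported). Subunit sets at least 1.5-fold higher numbered 0 after quantile normalization, 0 after the loess curve and 1 without _x_at and _s_at sets, whereas a floor at the 40th percentile gave 3. Inhibitor sets at least 1.5-fold higher numbered 0 without _x_at and _s_at sets, a setting that leaves out the measured set of NFKBIA. The medians given here shifted by more than the SD between probe sets of a gene over the root of the number of sets. The other medians shifted by less. That yardstick holds no variation between cultures or arrays. By gene the sign turned for RELA (-0.08 with the median of its sets) and for NFKBIE (lowest -0.04); REL (0.47 to 0.57) and NFKBIA (0.63 to 0.68) kept theirs. No paired analysis was possible because each group has 1 array, and no replicate could be left out. Signal over background limits RELB, NFKB2, NFKBIZ and most target genes, and a scaling difference between the arrays would move all members together.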
